A study of Rattus norvegicus with 12 samples.

Results

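In hippocampal area CA1 of chronically epileptic rats, 64 genes had a higher level in every epileptic animal than in every control animal, in the deep and in the superficial sublayer alike. They are 64 of the 10923 genes with a mean level of at least 5 CPM (a gene's reads scaled to a fixed library total), out of 32660 gene identifiers used. That mean was taken over all 12 libraries, so a gene under 5 CPM in control animals could pass through its epileptic values. The members were chosen by these measured levels: in each sublayer the lowest of the 3 epileptic values had to reach 1.2 times the highest of the 3 control values. A further condition kept the SD of log2(CPM + 1) over the 3 epileptic libraries of a sublayer below 0.8, which removed genes that varied widely between epileptic animals. CPM was computed over all gene rows except ENSRNOG00000043866 and ENSRNOG00000030478, the most abundant identifiers.

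RNA was sequenced from the pyramidal cell layer, collected by laser microdissection as separate deep and superficial strips from 20 µm sections of 3 control and 3 epileptic brains. The animals were male Wistar rats labelled as adult, with an age given as 45 to 50 days. The point of the protocol at which that age applies is not stated here. Epileptic rats had been given hourly intraperitoneal kainate at 5 mg/kg until status epilepticus, then diazepam at 4 mg/kg, and tissue was taken 6 to 8 weeks later. Control rats had been given vehicle, which was saline or DMSO, with otherwise similar handling. Each of the 4 groups (deep control, superficial control, deep epileptic, superficial epileptic) therefore held 3 libraries, with 1 deep and 1 superficial library from every animal. Seizures were seen or recorded in a subset of the epileptic animals only, according to the labels, so the seizure history of each animal is not given.

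Kainate activates ionotropic glutamate receptors and evokes prolonged seizures, and after a silent interval many treated rats develop spontaneous recurrent seizures. Chronic epileptic hippocampus is known for loss of neurons, reactive glia and lasting changes in neuronal gene expression. CA1 pyramidal cells of the deep and superficial sublayers differ in birth date, connections and firing, which is the reason for collecting them apart. The members are given by Ensembl identifier, because none of the 32662 identifiers in the files (0) could be paired with a gene symbol here, and no function is assigned to any of them. The 48 lists of cell type markers and pathway genes were not run for that reason, and the labelled tissue could not be checked against its markers. In such tissue samples, more cells of a type that expresses a gene and more RNA of that gene per cell cannot be told apart.

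The libraries held 16135358 to 25893962 gene counts. Over all gene rows, every epileptic library was deeper than every control library (lowest epileptic 20623196, highest control 19550582). These totals include the 2 abundant identifiers that the rule leaves out. They took 28.5% of the gene counts in deep epileptic animal 3 and 14.7% in deep control animal 1. The order therefore does not hold over the rows used for CPM. The member with the fewest reads had 23 to 38 counts in a control library and 79 to 111 in an epileptic library. The share of alignments outside annotated exons was 35.8 to 44.0% in the 6 control libraries and 43.0 and 37.7% in deep and superficial CA1 of epileptic animal 1. It was lower, at 22.3 to 26.7%, in the 4 libraries of epileptic animals 2 and 3. The share of alignments that were not unique, of the same total, was higher in those 4 libraries, at 37.9 to 45.6%. It was 25.9 to 34.8% in the control libraries and 25.2 and 30.6% in deep and superficial CA1 of epileptic animal 1. The 2 abundant identifiers that the rule leaves out took 15.7% ± 0.837 of the gene counts in deep control and 25.3% ± 4.93 in deep epileptic libraries (SD, n = 3 each). In superficial libraries they took 11.8% ± 0.891 and 20.5% ± 6.27 (SD, n = 3 each). If they are kept in the total, the median gene is 0.18 lower in deep and 0.14 lower in superficial epileptic CA1 on the log2 scale. The number of genes that satisfy the rule then falls to 26, all of them among the 64. All 64 members were still above the controls in that scaling, by a margin of at least 1.02 in deep and 1.04 in superficial libraries.

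Genes that satisfied the fold condition were few in each sublayer. It was met by 146 of the 10923 genes in deep CA1 (1.34%) and by 233 in superficial CA1 (2.13%). Both conditions were met together by 81 genes (0.742%), which is 55.5% of the deep list and 34.8% of the superficial list. The SD limit removed 17 of these and left the 64 members (0.586%). The mirror condition, with every control value at least 1.2 times every epileptic value in both sublayers, was met by 54 genes (0.494%). These shares describe how the members were found. Since the rule used the epileptic-to-control contrast of all 12 libraries, the levels below are a description and carry no test.

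The members were mostly genes of low to moderate abundance. Their median level was 12.4 CPM, against 36.3 CPM for the 10923 genes. Of the 64, 26 had a mean of 5 to 10 CPM, 21 of 10 to 20 CPM, 12 of 20 to 50 CPM and 3 of 50 to 100 CPM. Only 2 exceeded 100 CPM, at 334.5 and 1356 CPM. The increase was moderate as well. The mean epileptic level was 1.80 times the mean control level for the median member in deep CA1 (range 1.34 to 4.63) and 2.01 times in superficial CA1 (range 1.39 to 7.90). At least 2-fold increases were seen in 17 members in deep CA1, in 32 in superficial CA1 and in 15 in both.

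**Figure D1:**
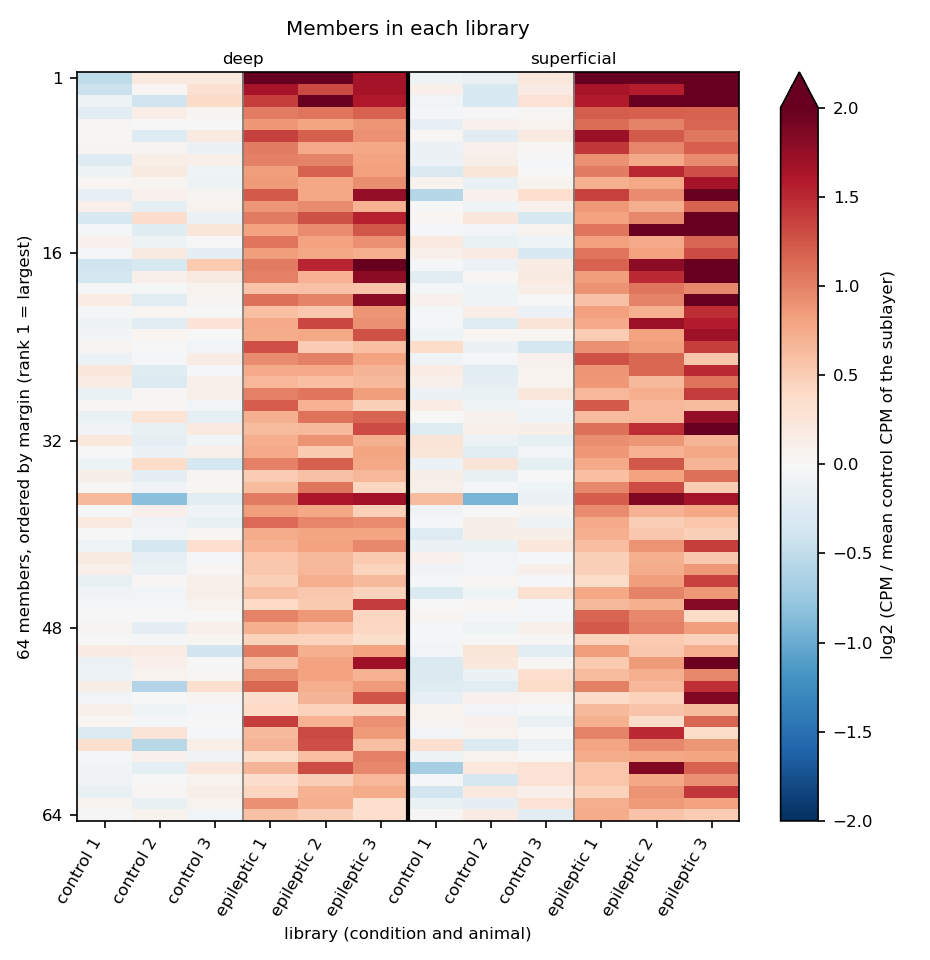
Heat map of the 64 members (rows, ordered by margin) in the 12 libraries (columns), coloured by log2 of the CPM over the mean control CPM of the same sublayer. All members are red in all 6 epileptic libraries, which the rule required. The superficial library of epileptic animal 3 has the most members at least 2-fold above the control mean, 38 of 64. The colour scale ends at a log2 value of 2.

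ENSRNOG00000018159 had the largest margin between the groups. Its level was under 5 CPM in every control library, so it passed the minimum mean only through its epileptic values. It stood at 1.49, 2.43 and 2.43 CPM in deep control animals 1, 2 and 3 and at 9.58, 13.1 and 6.74 CPM in deep epileptic animals 1, 2 and 3. In superficial CA1 it had 1.55, 1.515 and 1.95 CPM in control and 11.4, 17.95 and 10.3 CPM in epileptic animals. The lowest epileptic value was thus 2.77 times the highest control value in deep and 5.29 times in superficial CA1, and animal 2 was highest in both. The mean rose 4.63-fold in deep and 7.90-fold in superficial CA1, the largest folds among the members.

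ENSRNOG00000011796 followed with a margin of 2.02 in deep and 2.635 in superficial CA1. Its deep values were 2.075, 2.88 and 3.46 CPM in control animals and 8.81, 6.97 and 8.90 CPM in epileptic animals. Its superficial values were 1.96 to 2.73 CPM in control animals and 7.61, 7.19 and 13.1 CPM in epileptic animals, with animal 3 apart from the others. This member too passed the minimum mean only through its epileptic values. Margins then declined quickly: 12 members had a margin of at least 1.5 in both sublayers, and 27 lay under 1.3.

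The members closest to the threshold were separated from the controls by little. The smaller margin of the 4 members just inside was 1.2004, 1.2016, 1.2038 and 1.2058. The 4 genes just outside, which passed the other conditions, had 1.1999, 1.1996, 1.1976 and 1.1969. A further 85 genes, these 4 included, lay between 1.1 and 1.2, so the group has no natural edge.

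The most abundant member changed least. It had 1217, 1198 and 1264 CPM in deep control and 1682, 1666 and 1565 CPM in deep epileptic animals, a 1.34-fold increase, and superficial means of 1071 ± 20.4 and 1490 ± 45.9 CPM (SD, n = 3 each). All members together took 2253 ± 19.2 CPM of the RNA in deep control and 3530 ± 100.2 CPM in deep epileptic libraries (SD, n = 3 each). In superficial libraries the sums were 1959 ± 39.8 and 3261 ± 176.9 CPM (SD, n = 3 each). Without the most abundant member, the sums rose 1.84-fold in deep and 1.99-fold in superficial CA1.

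The 3 epileptic animals had similar increases in deep CA1. The median member was 0.82, 0.78 and 0.81 above the control mean on the log2 scale in animals 1, 2 and 3, while the median of the 10923 genes was 0.01, −0.01 and −0.02. In superficial CA1 the median member was 0.83 and 0.85 above control in animals 1 and 2 and 1.17 above in animal 3, where the median of all 10923 genes was 0.00, 0.01 and 0.01. The rule required an increase in each animal, so these medians describe the choice. The share of alignments outside exons was within the control range in animal 1 and lower in animals 2 and 3. In a fit with that share as a term, all 64 members kept a positive change. The lowest was 0.31 in deep and 0.33 in superficial CA1 on the log2 scale. These members were chosen for their increase, and the part of the share in it was not tested.

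No epileptic animal was the highest for all members. In deep CA1, animal 1 was highest for 21, animal 2 for 17 and animal 3 for 26 members. In superficial CA1 the numbers were 15, 14 and 35. The same animal was highest in both sublayers for 40 of the 64 (21 of them animal 3), and the full order of the animals was the same for 30. Over the 10923 genes, 65.4% had the same highest epileptic animal in both sublayers. The deep and superficial libraries of an animal come from 1 brain and are not independent. The commonest order was animal 1 lowest and animal 3 highest, in 18 members in deep and 23 in superficial CA1. The reverse order was found in 14 and 9 members. The SD of log2(CPM + 1) between epileptic animals, which the rule capped, had a median over the members of 0.17 in deep and 0.31 in superficial CA1. Between control animals it was 0.12 and 0.14. Over the 10923 genes the medians in deep and superficial CA1 were 0.17 and 0.15 between epileptic animals, and 0.1 and 0.1 between control animals.

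Whether genes chosen this way also differ in animals that did not choose them was examined by leaving out 1 epileptic and 1 control animal and applying the rule to the other 4. This was done for all 9 combinations, and the chosen genes were then read in the 2 animals left out. With epileptic animal 2 left out, 111 to 165 genes were chosen, and 55.2 to 68.0% of them were at least 1.2-fold higher in the epileptic than in the control animal left out, in both sublayers. Of all genes with a mean of at least 5 CPM in the 4 animals used, 12.5 to 14.5% were. With epileptic animal 3 left out, the shares were 45.6 to 46.6% of 215 to 277 chosen genes and 14.2 to 18.9% of all genes. With epileptic animal 1 left out they were lowest, 22.7 to 40.7% of 317 to 494 chosen genes against 7.62 to 8.36% of all genes. Most chosen genes thus failed the condition with epileptic animal 1 or 3 left out, and most passed it with animal 2 left out. The median chosen gene was 0.44 to 0.60 higher in epileptic animal 2 on the log2 scale, 0.33 to 0.36 in animal 3 and 0.10 to 0.30 in animal 1. The 9 combinations share animals and are not separate experiments.

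**Figure D2:**
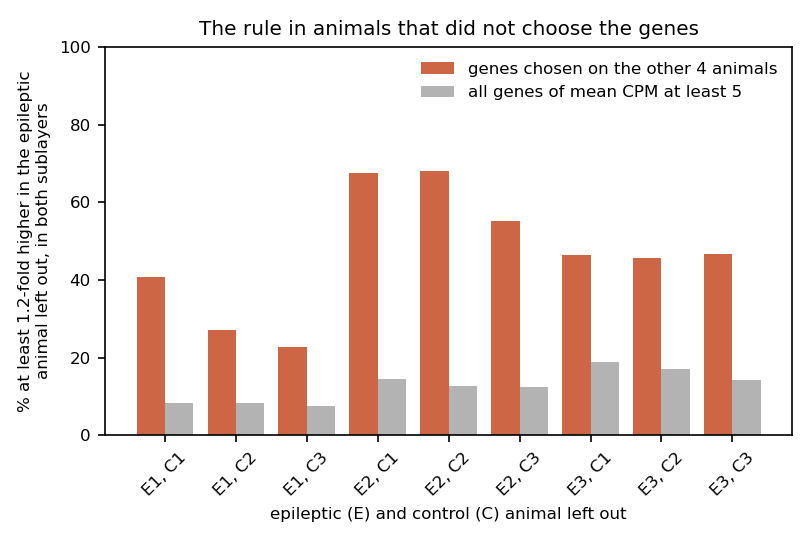
Bars give the percentage of genes at least 1.2-fold higher in the epileptic (E) than in the control (C) animal left out, in both sublayers, for each of the 9 combinations. Orange bars are genes chosen on the other 4 animals, and grey bars are all genes with a mean of at least 5 CPM. The orange bars run from 22.7 to 68.0% and the grey bars from 7.62 to 18.9%.

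With all animals, the fold of the means was larger in superficial CA1 for 54 members and larger in deep CA1 for 10. The folds were close for most: 42 members differed by no more than 1.2 times between the sublayers, and 3 by more than 1.5 times, all larger in superficial CA1. In separate fits of each sublayer, the order of the 2 medians depended on epileptic animal 3. The median fitted log2 change of the members was 0.83 in deep and 0.98 in superficial CA1 with all animals, and 0.86 and 0.83 without that animal. Both medians were 0.82 in a fit that also had the outside-exon share as a term. The difference itself was tested for every gene as the interaction of sublayer and condition, with each animal as a term, in edgeR's quasi-likelihood fit of all 12 libraries. The rule did not compare the size of the 2 increases, but it acted on the margin. At a given margin, a wider spread between epileptic animals goes with a larger mean fold. The median margin of the members was 1.385 in deep and 1.408 in superficial CA1. Their median SD of log2(CPM + 1) between epileptic animals was 0.17 and 0.31. The part of the rule in the larger superficial fold was not tested.

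**Figure D3:**
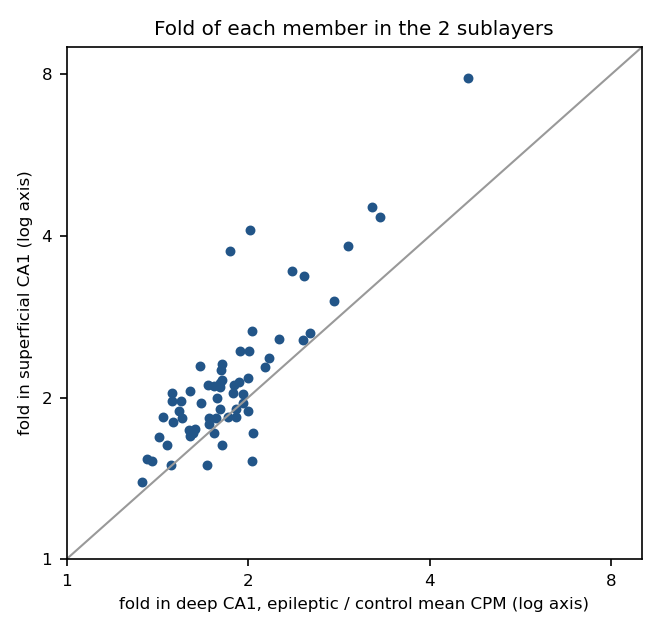
Each point is a member, with its fold (epileptic over control mean CPM) in deep CA1 on the horizontal and in superficial CA1 on the vertical log axis. The grey line marks equal folds, and 54 of the 64 points lie above it.

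In that test no gene passed, 0 of 14791 (0%) and 0 of the 64 members, with a lowest adjusted p among the members of 0.4403 (edgeR, Benjamini-Hochberg). At an unadjusted p below 0.05 there were 9 members, 8 with the larger increase in superficial CA1. Over the 10923 genes that share was 6.53%. DESeq2 called none of the members either, with 4 at an unadjusted p below 0.05. The fitted interaction was positive in 50 of the 64 members (median log2 difference 0.11) and in 44.9% of the 10923 genes (median −0.02). Without epileptic animal 3 it was positive in 38 members and in 48.6% of the genes, and without any other single animal in 49 to 53 members. The median interaction of the members without epileptic animal 3 was 0.11, as with all animals.

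ENSRNOG00000039390 and ENSRNOG00000006828 had the smallest interaction p among the members, and were singled out after their values were seen. Both were under 5 CPM in every control library and passed the minimum mean only through their epileptic values. ENSRNOG00000039390 had 3.24, 3.07 and 3.90 CPM in deep and 2.13, 2.71 and 2.73 CPM in superficial control animals 1, 2 and 3. In epileptic animals 1, 2 and 3 it had 5.26, 5.36 and 8.42 CPM in deep and 5.43, 6.99 and 15.9 CPM in superficial CA1. It was thus lower in superficial than in deep CA1 in every control animal and higher in every epileptic animal, most so in animal 3. The difference between the log2 sublayer differences was 0.89 (SE 0.26, adjusted p = 0.4403, edgeR) and did not pass. It passed with no low-count filter (adjusted p = 0.02907), and the adjusted p ranged from there to 0.9999 over the alternatives.

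ENSRNOG00000006828 had 3.52 to 4.93 CPM in deep and 2.02 to 2.21 CPM in superficial control animals. The epileptic values for animals 1, 2 and 3 were 7.33, 8.05 and 9.84 CPM in deep and 4.42, 8.396 and 13.03 CPM in superficial CA1. Its interaction was 0.91 (SE 0.28, adjusted p = 0.507, edgeR). It passed only with no low-count filter (adjusted p = 0.01683) and when epileptic animal 1 was left out (adjusted p = 0.02913). Its adjusted p ranged from 0.01683 to 0.9999 over the alternatives.

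How the members lie across the sublayers was then compared within animals, a contrast the rule did not use. In control rats the members leaned to the deep sublayer. The median superficial-minus-deep difference of the members was −0.20, −0.16 and −0.16 on the log2 scale in control animals 1, 2 and 3, against −0.01, −0.04 and −0.01 over the 10923 genes. In each control animal 42 to 45 of the 64 were higher in deep CA1. In epileptic animal 1 the median was −0.15, close to the control animals, and it was −0.03 in animal 2 and 0.19 in animal 3. The medians over the 10923 genes were −0.03, 0.00 and 0.03 in the same 3 animals. Members higher in superficial CA1 numbered 22, 31 and 45 in epileptic animals 1, 2 and 3. The share of alignments outside exons was also within the control range in animal 1 and lower in animals 2 and 3. Its part in this result was not tested.

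**Figure D4:**
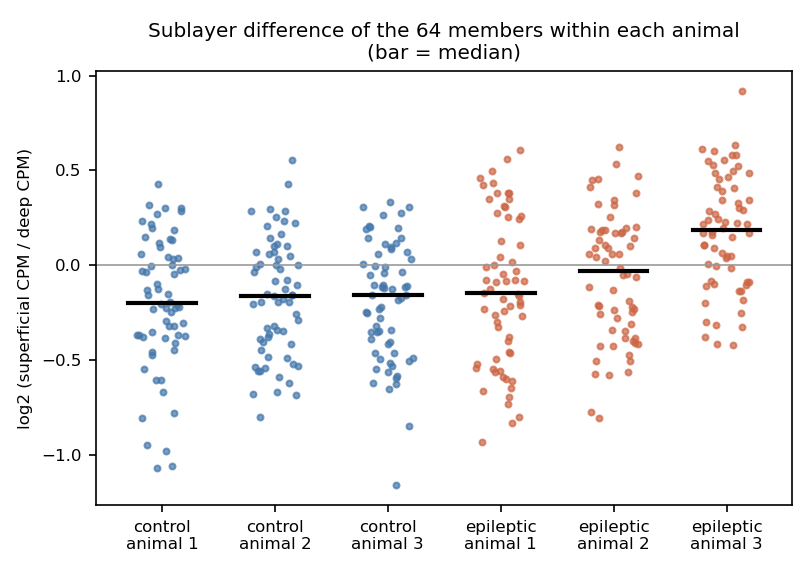
Points are the 64 members in each of the 6 animals, placed by log2 of superficial over deep CPM, with a bar at the median. The bars lie at −0.20 to −0.16 in the control animals and at −0.15, −0.03 and 0.19 in epileptic animals 1, 2 and 3.

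In control rats 14 of the 64 members differed between the sublayers at an adjusted p below 0.05, and all 14 were higher in deep CA1 (edgeR, animal as a term). Over all 14791 genes tested 8.44% differed. Of the 10923 genes of the same minimum abundance, 5.03% were called higher in deep and 5.45% higher in superficial CA1. The differences ranged from −0.95 to −0.16 on the log2 scale. The number of calls depended on the animals used: without control animal 1, 2 or 3 it fell to 3, 4 and 5, all among the 14. In those 3 fits 3.59 to 3.63% of the 10923 genes were called, against 10.47% with all animals. Without epileptic animal 1, 2 or 3 the calls in control rats numbered 19, 11 and 21. The share of the 10923 genes called was then 16.6, 7.85 and 17.0%. With no term for the animal, edgeR called 0 members and 0.0458% of the 10923 genes, and 10 members had an unadjusted p below 0.05.

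ENSRNOG00000017438 had the smallest p in control rats. Its deep control values were 39.2, 38.9 and 37.0 CPM and its superficial control values 30.4, 25.9 and 26.4 CPM in animals 1, 2 and 3, without overlap (log2 difference −0.44, SE 0.07, adjusted p = 0.001084, edgeR). In epileptic animals 1, 2 and 3 it had 88.7, 61.9 and 53.2 CPM in deep and 64.7, 43.6 and 42.8 CPM in superficial CA1. It was higher in deep CA1 in all 6 animals, and the difference in epileptic rats was −0.42 (SE 0.06, adjusted p = 0.0007004, edgeR).

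ENSRNOG00000020533 was also higher in deep control CA1, with 56.5, 59.8 and 55.2 CPM against 43.3, 47.65 and 36.6 CPM in superficial CA1 (log2 difference −0.39, SE 0.07, adjusted p = 0.001888, edgeR). In epileptic animals it had 71.8 to 85.5 CPM in deep and 60.2 to 71.05 CPM in superficial CA1, and animal 1 was highest in both. This member had the smallest margin that the rule accepted, 1.2004 in deep CA1.

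In epileptic rats 18 members passed the sublayer test, 10 with more RNA in superficial CA1 and 8 with more in deep CA1 (edgeR, adjusted p below 0.05). Over all 14791 genes 10% differed, and of the 10923 genes 5.88% were called higher in superficial and 6.23% higher in deep CA1. All 8 of the deep-higher members were also called in control rats. All 10 of the superficial-higher members were called in epileptic rats only, but the direct test of that difference, above, passed for none of them. The same overlap over all genes is not given here, so neither count is read as a trait of the members. DESeq2 called 7 members, of which 2 had more RNA in superficial CA1. With no term for the animal, edgeR called 0 members and 0.0458% of the 10923 genes, and 13 members had an unadjusted p below 0.05. Without epileptic animal 1, 2 or 3 edgeR called 10, 3 and 30 members, of which 5, 1 and 11 were higher in superficial CA1. In those 3 fits 7.92, 4.42 and 18.7% of the 10923 genes were called, against 12.1% with all animals. With DESeq2 that share was 7.38%.

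ENSRNOG00000027992 was the superficial-higher member of smallest p. It had 31.8, 30.4 and 31.5 CPM in deep and 40.45, 34.6 and 47.1 CPM in superficial CA1 of epileptic animals 1, 2 and 3 (log2 difference 0.38, SE 0.08, adjusted p = 0.006588, edgeR). In control animals it had 22.2, 16.6 and 21.5 CPM in deep and 23.8, 19.5 and 23.3 CPM in superficial CA1. The superficial value was higher in all 6 animals, with a control difference of 0.18 that did not pass (SE 0.09, adjusted p = 0.224).

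ENSRNOG00000020935 was nearly constant among the deep epileptic animals, at 7.57, 7.63 and 7.55 CPM, and higher in their superficial CA1, at 10.4, 11.8 and 10.9 CPM (log2 difference 0.54, SE 0.11, adjusted p = 0.007251, edgeR). Control values were 4.93, 4.99 and 5.30 CPM in deep and 5.41, 5.24 and 6.11 CPM in superficial CA1 (log2 difference 0.17, SE 0.13, adjusted p = 0.4836). The call in epileptic rats was lost with DESeq2 (adjusted p = 0.06765), and also when epileptic animal 2 was left out (adjusted p = 0.08948). The adjusted p ranged from 0.0006026 to 0.1919 over the alternatives.

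Among the deep-higher members in epileptic rats, ENSRNOG00000033615 came second by p after ENSRNOG00000017438. Its deep values were 501.1, 568.5 and 426.6 CPM and its superficial values 344.9, 483.8 and 327.8 CPM in epileptic animals 1, 2 and 3 (log2 difference −0.38, SE 0.06, adjusted p = 0.001043, edgeR). Deep control animals had 232.4, 320.2 and 195.5 CPM and superficial control animals 188.6, 244.7 and 179.4 CPM (log2 difference −0.24, SE 0.06, adjusted p = 0.02701, edgeR). It is the second most abundant member, its fold was 2.00 in deep and 1.89 in superficial CA1, and it is 1 of the 10 with the larger fold in deep CA1.

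**Figure D5:**
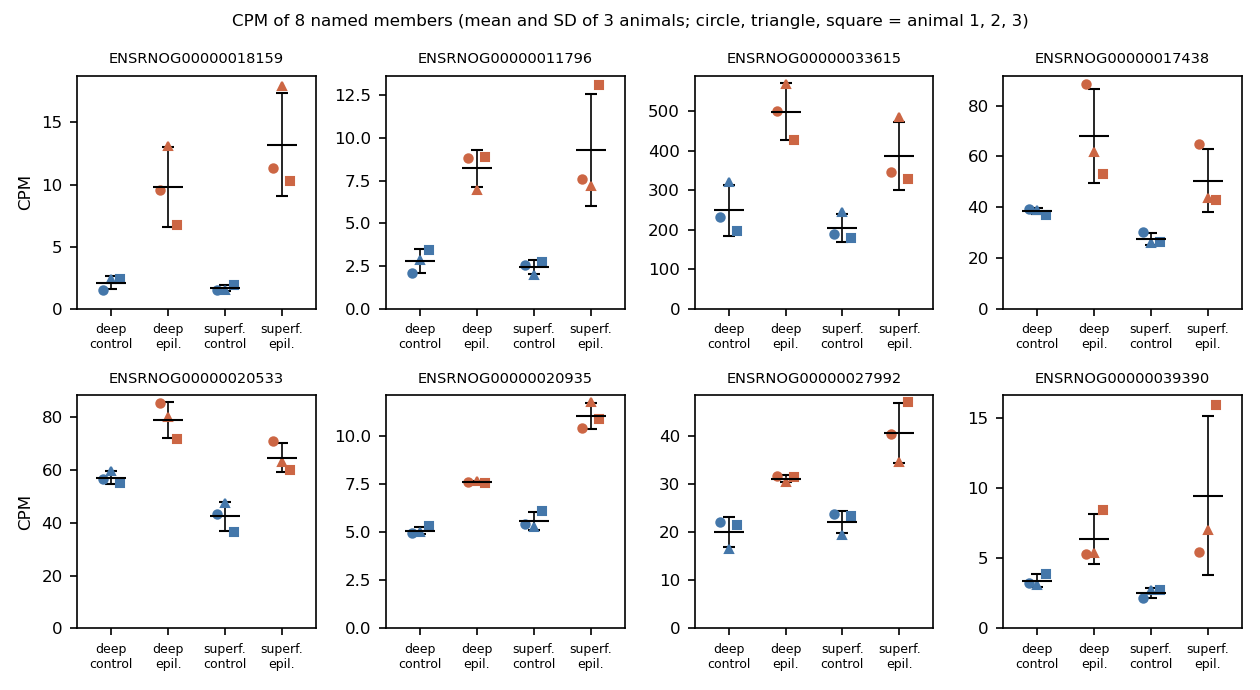
CPM of 8 named members in the 12 libraries, with blue symbols for control and orange symbols for epileptic animals, and a bar with error bars for the mean and SD of the 3 animals. Each axis starts at 0. The epileptic symbols lie above the control symbols of the same sublayer in every panel, as the rule required. Animals 1, 2 and 3 are a circle, a triangle and a square.

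Counts of members with the same sign in every animal were set beside those of the 10923 genes. In all 3 control animals, 31 members (48.4%) were higher in deep CA1, against 30.6% of the genes, and 10 (15.6%) were higher in superficial CA1, against 22.1%. In all 3 epileptic animals, 14 members (21.9%) were higher in deep CA1, against 22.1% of the genes, and 17 (26.6%) were higher in superficial CA1, against 23.1%. Over all 6 animals, 12 members (18.8%) were higher in deep CA1, where 13.5% of the genes were, and 8 (12.5%) were higher in superficial CA1, where 11.7% were. The shares in epileptic animals were thus near those of all genes.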

How the data were processed

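Raw gene counts, whole reads per Ensembl identifier without normalization, came as 12 tables, 1 for each library, as the authors deposited them. The build was Rnor_6.0, and HTSeq 0.6.1, SAMtools 0.1.19, STAR 2.5.0c and FastQC 0.11.3 are listed, per the submitters' processing notes. Settings and strand use are not given in the sources used here. Reads of overlapping, antisense or near-identical genes may not be told apart. The 5 summary tallies were left out of totals and tests.

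The members and gene lists were chosen with earlier results of these data known. CPM was computed in Python 3.11.15 (pandas 2.3.3) over 32660 rows. Tests used R 4.3.3 and edgeR 4.0.16: filterByExpr (minimum count 10, total 15), TMM scaling, robust quasi-likelihood fits and Benjamini-Hochberg adjustment over all genes tested, with a threshold of 0.05. The sublayer contrasts and their interaction came from 1 model of 12 libraries with a term for each animal. Deep and superficial libraries of an animal deviated together from their group means (r = 0.452 to 0.833 over 6 animals), and equal replicate numbers in the labels were taken as 1 brain. With that term, p-values measure how the superficial-minus-deep difference varied among these animals, with the spread moderated across genes. They do not measure the spread of levels between animals. The SE is the absolute log2 change over the square root of the F statistic, an approximation. DESeq2 1.42.0 was an alternative. The fits were first tested on simulated counts. No 2 libraries of a group were duplicates (chi-square per gene at least 6.84).

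By the naming rule, at most 2 identifiers per direction are named in each comparison: for the epileptic increase the largest margins, for the sublayers the smallest p among calls. Where none was called in the interaction, 2 were named as not passing. Gene positions and promoter sequences were not used here, since no identifier could be matched.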

Additional observations from a re-analysis of the deposited data

Results flagged for a closer look

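For 2 of the 64 members the sublayer difference had one sign in every control animal and the opposite sign in every epileptic animal. ENSRNOG00000039390 had a fitted log2 superficial-minus-deep difference of −0.39 in control and 0.49 in epileptic rats. ENSRNOG00000016587 went the other way, with 0.29 in control and −0.16 in epileptic rats. Its levels were 3.31 to 4.215 CPM in deep and 4.09 to 4.73 CPM in superficial control animals, and 7.08 to 8.04 and 6.13 to 7.385 CPM in epileptic animals. It thus passed the minimum mean only through its epileptic values, and its log2 sublayer difference in control animal 1 was only 0.03. Neither passed the test of the difference itself (edgeR interaction, adjusted p = 0.4403 and 0.7436). Of the 10923 genes, 1.35% changed sign as the first did and 0.568% as the second did. Among the members 1 of 64 (1.56%) did so each way, a share near that of all genes for the first and 1 gene for the second.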

How the results depend on the processing

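The number of members, 64, became 49 with TMM-scaled CPM (47 shared with the 64) and 26 with CPM over all gene rows. It was 12 with a factor of 1.5, 470 with a factor of 1.0, 111 with a mean CPM of at least 1, 81 with no SD limit, and 77 to 266 without 1 animal. Members called between sublayers in control rats numbered 0 with no replicate block (edgeR without the animal term, 10 at an unadjusted p below 0.05, against 14 in the paired fit) and 3 to 21 without 1 animal. In epileptic rats they numbered 7 with DESeq2, 0 with no replicate block (13 unadjusted) and 3 to 30 without 1 animal. For the interaction, 2 members were called with no low-count filter and 0 to 1 without 1 animal. Without the replicate block all 6 sublayer calls of named members were lost (adjusted p = 0.1919 to 0.7661). The cause was not tested in any of these. The median epileptic increase of the members, 0.83 in deep and 0.98 in superficial CA1, was 0.82 to 0.86 and 0.83 to 1.04 without 1 animal. Without epileptic animal 3 the deep value (0.86) exceeded the superficial one (0.83). It was 0.83 and 0.94 in a fit with a replicate block. The numbers join different animals, whose deviations correlated at 0.179 to 0.363 in deep and −0.0304 to 0.292 in superficial CA1. With a factor of 1.0 in place of 1.2 in the animals left out, the median share of chosen genes that passed was 71.8%, against 46.5%, and that of all genes 38.2%, against 12.6%. Of 66 alternatives for these main results, 45 stayed within the limits set for a change. These limits were wide, since 95 members in place of 64 stayed within them. The median epileptic increase, which the rule required, stayed in 10 of 11 alternatives in deep and 11 of 11 in superficial CA1. The number of members stayed in 4 of 12. The sublayer calls stayed in 6 of 10 in control and 5 of 10 in epileptic rats, and the interaction in 8 of 10. For the animals left out, 1 of 2 stayed. The split of the epileptic sublayer calls, 10 superficial to 8 deep, turned to 2 and 5 with DESeq2 and to 11 and 19 without epileptic animal 3. The lowest count of a member in a library was 23, so counting error is largest for such members.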

Other observations

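The 17 genes that met the fold condition in both sublayers but exceeded the limit on the SD between epileptic animals looked unlike the members in one respect. In 15 of them epileptic animal 3 was highest in both sublayers. Their median fold over the control mean was 2.13, 4.11 and 8.01 in deep CA1 of epileptic animals 1, 2 and 3, and 2.46, 7.42 and 23.7 in superficial CA1. For the 64 members the same medians were 1.77, 1.72 and 1.76 for deep CA1, and for superficial CA1 they were 1.78, 1.80 and 2.25. The SD limit was part of the rule, so this contrast describes the choice and was not tested.

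With the 2 abundant identifiers kept in the totals, 38 genes were raised and 143 were lowered by the factor of 1.2 in both sublayers, against 81 and 54 without them. With TMM-scaled CPM the numbers were 62 and 61.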
